A study of Mus musculus with 16 samples.

Results

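The globin genes and Alas2 were read out in RNA from fetal mouse testis, where they mark red cells carried along with the testis cells. The 8 genes, of 47729 in the count table, were fixed by name: the embryonic globins Hbb-y, Hbb-bh1 and Hba-x, the adult globins Hbb-bs, Hbb-bt, Hba-a1 and Hba-a2, and Alas2 as the erythroid reference. All 8 had a row in the table and passed the filter on low counts, which 20076 genes passed. They were chosen by their level at E13.5 against E15.5 in these libraries, so that change is given as a description and not as a test.

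The samples were cells of the fetal testis sorted as negative for GFP, from wild-type (WT) and knockout (KO) fetuses for Inhba, the gene of the activin A subunit, on embryonic day E13.5 or E15.5. All groups carried an Oct4 GFP reporter, used to remove germ cells, on a strain background given as C57/Bl6/129svJ, and none received a treatment. Each of the 4 groups (WT E13.5, KO E13.5, WT E15.5, KO E15.5) had 4 libraries, 16 in all. The sources used here do not state which cells lose Inhba or which part of the gene was removed. Red cells were not a target of the sort, which kept every viable cell without GFP. In such bulk RNA, fewer red cells and less RNA per red cell cannot be told apart. The design text gives 3 to 4 animals per age and genotype, so an animal may have given more than 1 library, which would make the p-values too low.

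Hemoglobin is a tetramer of 2 alpha-type and 2 beta-type globin chains, each holding a heme. In the mouse, the large primitive red cells that leave the yolk sac make the embryonic chains encoded by Hba-x (zeta), Hbb-y (epsilon y) and Hbb-bh1 (beta h1), and Hbb-bh1 gives way to Hbb-y as these cells mature. Definitive red cells from the fetal liver make the adult chains, and they join and then outnumber primitive cells in the fetal blood, which is the change known as hemoglobin switching. Alas2 makes the red cell form of 5-aminolevulinate synthase, the enzyme that starts heme synthesis.

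The beta-type genes lie together on chromosome 7 (GRCm38, all on the minus strand). Hbb-y spans 103851749 to 103853216, Hbb-bh1 103841637 to 103843164, Hbb-bs 103826534 to 103828096 and Hbb-bt 103812524 to 103813996. The alpha-type genes lie on chromosome 11, on the plus strand, with Hba-x at 32276400 to 32278116, Hba-a1 at 32283511 to 32284465 and Hba-a2 at 32296489 to 32297298. Alas2 lies on the plus strand of the X chromosome, at 150547375 to 150570638. In both clusters the embryonic genes stand upstream of the adult ones.

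How well reads can tell these genes apart is seen in coding bases 91 to 165, taken from the GENCODE vM21 transcripts and shown because the adult copies are identical there. Capitals mark bases that differ from Hbb-bs in the beta-type genes and from Hba-a1 in the alpha-type genes.
Hbb-bs: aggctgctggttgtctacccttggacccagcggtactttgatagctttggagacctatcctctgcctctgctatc
Hbb-bt: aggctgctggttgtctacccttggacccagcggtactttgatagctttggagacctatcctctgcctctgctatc
Hbb-y: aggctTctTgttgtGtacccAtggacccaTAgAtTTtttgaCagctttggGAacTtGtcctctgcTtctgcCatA
Hbb-bh1: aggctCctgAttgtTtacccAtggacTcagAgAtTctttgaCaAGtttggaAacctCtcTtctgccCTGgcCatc
Hba-a1: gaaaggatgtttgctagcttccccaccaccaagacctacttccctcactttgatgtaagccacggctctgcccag
Hba-a2: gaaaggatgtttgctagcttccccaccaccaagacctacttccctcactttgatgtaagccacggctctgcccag
Hba-x: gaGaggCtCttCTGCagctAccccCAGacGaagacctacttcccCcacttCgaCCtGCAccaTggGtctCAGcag
Over the whole coding sequence of the reference, Hbb-bs and Hbb-bt differed at 1 of 444 bases and Hba-a1 and Hba-a2 at 1 of 429. The sequences carried by these fetuses, which were of mixed strain background, were not examined. Hbb-y was 74.3% identical to Hbb-bs and 76.4% identical to Hbb-bh1, and Hba-x was 62.0% identical to Hba-a1. Of all 100-base windows of the transcript, 62.6% in Hbb-bs, 54.8% in Hbb-bt, 56.5% in Hba-a1 and 74.5% in Hba-a2 also occurred in the other adult copy. None of the windows of Hbb-y, Hbb-bh1 or Hba-x occurred in another gene. How reads that match several genes were counted is not given in the sources used here, so the values of the 4 adult genes are uncertain, and their sums are lower than the true ones where such reads were dropped. Alas2 shared 11.0% of its windows with the overlapping gene Apex2, and the counts were made without strand.

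RefSeq (GRCm38.p6) gave promoter windows of 250 bases before the start for 7 of the 8 genes, all but Hbb-bh1. The windows of both well-expressed embryonic genes and of an adult gene of each cluster are printed here because the embryonic and adult genes moved apart between the ages. Capitals mark matches, on either strand, to CCNCNCCC (the kind of site bound by Klf1), AGATAA or TGATAA (bound by GATA factors), CCAAT (the CCAAT box), TGACCA (bound by Bcl11a, a repressor of embryonic and fetal globins) and ATAAA (TATA type).
Hbb-y, chr7:103853208-103853457, minus strand: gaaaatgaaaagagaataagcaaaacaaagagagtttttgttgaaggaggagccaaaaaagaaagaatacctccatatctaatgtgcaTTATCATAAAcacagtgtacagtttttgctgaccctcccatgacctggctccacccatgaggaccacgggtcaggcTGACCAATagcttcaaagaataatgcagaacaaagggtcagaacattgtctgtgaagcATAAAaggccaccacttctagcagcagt
Hba-x, chr11:32276350-32276599, plus strand: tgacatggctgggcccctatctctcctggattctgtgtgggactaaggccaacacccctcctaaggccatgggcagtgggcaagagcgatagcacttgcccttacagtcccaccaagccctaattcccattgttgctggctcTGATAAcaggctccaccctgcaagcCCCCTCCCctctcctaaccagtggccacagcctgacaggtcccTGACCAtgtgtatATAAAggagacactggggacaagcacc
Hbb-bs, chr7:103827929-103828178, minus strand: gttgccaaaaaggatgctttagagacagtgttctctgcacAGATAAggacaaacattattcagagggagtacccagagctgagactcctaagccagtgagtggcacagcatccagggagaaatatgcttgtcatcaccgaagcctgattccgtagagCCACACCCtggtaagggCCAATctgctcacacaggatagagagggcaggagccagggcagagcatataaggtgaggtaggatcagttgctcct
Hba-a2, chr11:32296242-32296491, plus strand: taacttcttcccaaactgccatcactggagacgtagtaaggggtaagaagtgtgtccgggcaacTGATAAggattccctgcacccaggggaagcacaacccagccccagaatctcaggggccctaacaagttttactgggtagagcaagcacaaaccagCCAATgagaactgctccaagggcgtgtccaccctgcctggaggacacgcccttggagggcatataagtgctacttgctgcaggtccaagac
The GENCODE genes of all 7 begin upstream of the RefSeq starts, so part of each window is transcribed in GENCODE. That part is a few bases only for Hbb-y and Hba-a2, and longer for the others. TGACCA was found in Hbb-y, from base -86 to -81 before the start and overlapping its CCAAT box, and in Hba-x, from base -40 to -35. It was found in none of the windows of Hbb-bs, Hbb-bt, Hba-a1, Hba-a2 and Alas2, and in 11.4% of the 32851 windows of the table. CCNCNCCC was found in Hba-x, Hbb-bs, Hbb-bt and Alas2, and in 45.9% of all windows. AGATAA or TGATAA was found in every window of the 7 genes except that of Hbb-bt, and in 16.6% of all windows. CCAAT was found in the 4 adult globins and Hbb-y, and in 33.8% of all windows. ATAAA was found in Hbb-y, Hba-x, Hbb-bt and Alas2, and in 37.3% of all windows. In Alas2 it was on the minus strand only, from base -209 to -205 and from -87 to -83. The windows of Hbb-bs and Hba-a2 hold catataag near their ends, which ATAAA does not match. The windows of Hba-a1 and Hba-a2 shared an unbroken run of 247 bases, while the longest run shared by Hbb-bs and Hbb-bt was 14 bases. These matches describe letters and were not tested for binding.

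Total counts ran from 6131592 to 23324810 per library. Inhba, the targeted gene, was at 73.3 ± 24.5 CPM (the counts of a gene per 1000000 counts of the library after TMM scaling; SD, n = 4) in WT E13.5 and 6.38 ± 1.83 in KO E13.5, and at 291 ± 68.0 in WT E15.5 and 42.5 ± 6.13 in KO E15.5. The libraries held the cell types their label names: the summed CPM of 10 Sertoli cell genes was 588 to 3018, that of 6 fetal Leydig cell genes 393 to 3175 and that of 8 stromal cell genes 900 to 6545. KO E13.5 replicate 1 stood apart, with 3630 summed CPM of 10 germ cell genes against 10.7 to 37.6 in the other 15 libraries. It also had the lowest Sertoli, Leydig and stromal sums. Several results that rest on it, though not all, are therefore given with and without it. Titles carry a number that the labels do not explain: 1052 stands on KO E15.5 replicates 1 and 2, and 855 is shared by KO E15.5 replicate 3 and WT E15.5 replicate 2.

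Hbb-y was the most abundant globin at E13.5 and, per kb, below the sum of the adult beta genes in every E15.5 library. In WT E13.5 it measured 2337, 1829, 1879 and 12182 CPM in replicates 1 to 4, and in KO E13.5 579, 2605, 8053 and 9356 CPM. In WT E15.5 it measured 2.89, 19.3, 424 and 160 CPM, and in KO E15.5 12.0, 21.7, 62.0 and 147 CPM. Every E13.5 library was above every E15.5 library of its genotype, and the lowest E13.5 value was that of the germ cell-rich library. The log2 fold change from E13.5 to E15.5 was -4.91 (SE 1.33) in WT, a 30.1-fold lower level, and -6.41 (SE 1.43) in KO, an 84.7-fold lower level. In KO it was -6.77 (SE 1.3) without the germ cell-rich library.

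Hba-x, the embryonic alpha-type gene, moved the same way from a much lower level. In WT E13.5 it measured 44.4, 31.7, 37.7 and 192 CPM, and in KO E13.5 14.5, 64.4, 150 and 176 CPM. In WT E15.5 it measured 0.109, 1.03, 13.2 and 4.03 CPM, and in KO E15.5 0.203, 1.59, 2.60 and 3.16 CPM. The ages did not overlap within either genotype, although WT E15.5 replicate 3, at 13.2 CPM, was close to the lowest KO E13.5 library. The log2 fold change was -4.07 (SE 1.03) in WT and -5.71 (SE 1.13) in KO. In KO it was -6.06 (SE 0.92) without the germ cell-rich library.

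Hbb-bh1, the earliest beta-type gene of primitive cells, was near its end in all libraries. Its read counts were 48, 25, 21 and 212 in WT E13.5 and 16, 45, 28 and 120 in KO E13.5, against 1, 2, 0 and 4 in WT E15.5 and 0, 0, 0 and 5 in KO E15.5. A count of 0 allows up to 3 counts, which is 0.135 to 0.217 CPM in the 4 libraries at 0, so the E15.5 level is not resolved. Fitted log2 fold changes of -5.47 (SE 1.10) in WT and -5.78 (SE 1.15) in KO rest on 7 and 5 reads at E15.5 and depend on the small count the model adds. Among embryonic beta-type reads per kb of exon, Hbb-bh1 made up 0.0549% to 0.135% in the 8 E13.5 libraries.

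The 3 embryonic globins passed the threshold of the fit (edgeR quasi-likelihood test, Benjamini-Hochberg adjusted p under 0.05) as lower at E15.5 in each genotype, and none of the other 5 genes did. Of all genes tested, 2.64% passed as lower in WT and 7.85% in KO, and 6.79% and 15.4% in either direction. Since the genes were chosen for this contrast, nothing is read from that count or from the lack of overlap between the ages. The share of all genes without such overlap was not counted. In WT the count of genes passing rested on single libraries: without WT E13.5 replicate 4, or without WT E15.5 replicate 1, 2 or 4, 1 of the 3 genes, Hbb-bh1, still passed. The median log2 change of the 8 genes was -0.06 in WT and -1.16 in KO, beside 0.02 and -0.05 over all genes.

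Adult beta globin did not separate the ages. Hbb-bt measured 79.9, 187, 86.0 and 435 CPM in WT E13.5, 62.4, 150, 140 and 365 CPM in KO E13.5, 33.2, 21.9, 736 and 192 CPM in WT E15.5, and 38.7, 67.6, 56.3 and 547 CPM in KO E15.5. Hbb-bs measured 67.9, 150, 48.3 and 252 CPM in WT E13.5, 52.0, 82.5, 89.5 and 210 CPM in KO E13.5, 27.7, 12.9, 572 and 156 CPM in WT E15.5, and 30.0, 74.7, 42.1 and 306 CPM in KO E15.5. For both genes the ages overlapped, since a single E15.5 library of each genotype (WT replicate 3, KO replicate 4) was above all E13.5 libraries and others were below them. Within WT E15.5 the highest library held 33.6 times the lowest for Hbb-bt and 44.4 times for Hbb-bs. Log2 changes with age were 0.57 (SE 0.95) and 0.06 (SE 0.95) for Hbb-bs in WT and KO, and 0.32 (SE 1.01) and -0.01 (SE 1.01) for Hbb-bt. Hbb-bs supplied 33.5% to 50.3% of adult beta-type reads per kb, with Hbb-bt supplying the rest. These values and the beta shares below take Hbb-bs and Hbb-bt as they stand in the reference genome. The strain background is mixed, and whether every library carried the reference forms of these genes was not tested. Its part in the spread of adult beta counts between libraries was not tested either.

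Adult alpha globin was counted at a few CPM only. At E13.5 Hba-a1 ran from 1.36 to 6.13 CPM among WT and from 3.18 to 10.7 CPM among KO libraries, and at E15.5 from 0.454 to 7.29 and from 0.355 to 7.08 CPM. Hba-a2 ran from 1.90 to 10.8, 1.66 to 9.65, 0.330 to 9.44 and 0.710 to 7.75 CPM in the same order. The ages overlapped for both genes in both genotypes, and the log2 changes with age lay between -1.35 and 0.12.

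Alas2 did not separate the ages either. It measured 17.2, 31.7, 16 and 59.2 CPM in WT E13.5, 10.3, 19.5, 22.5 and 47.8 CPM in KO E13.5, 18.8, 16, 83.5 and 35.5 CPM in WT E15.5, and 13.2, 17.0, 12.3 and 50.3 CPM in KO E15.5. Ages and genotypes overlapped. Within a group the highest library held 3.70 to 5.23 times the lowest, against 6.66 to 147 times for Hbb-y, and the libraries high in Alas2 (replicates 4 at E13.5, WT replicate 3 and KO replicate 4 at E15.5) were those high in adult beta globin.

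**Figure D1:**
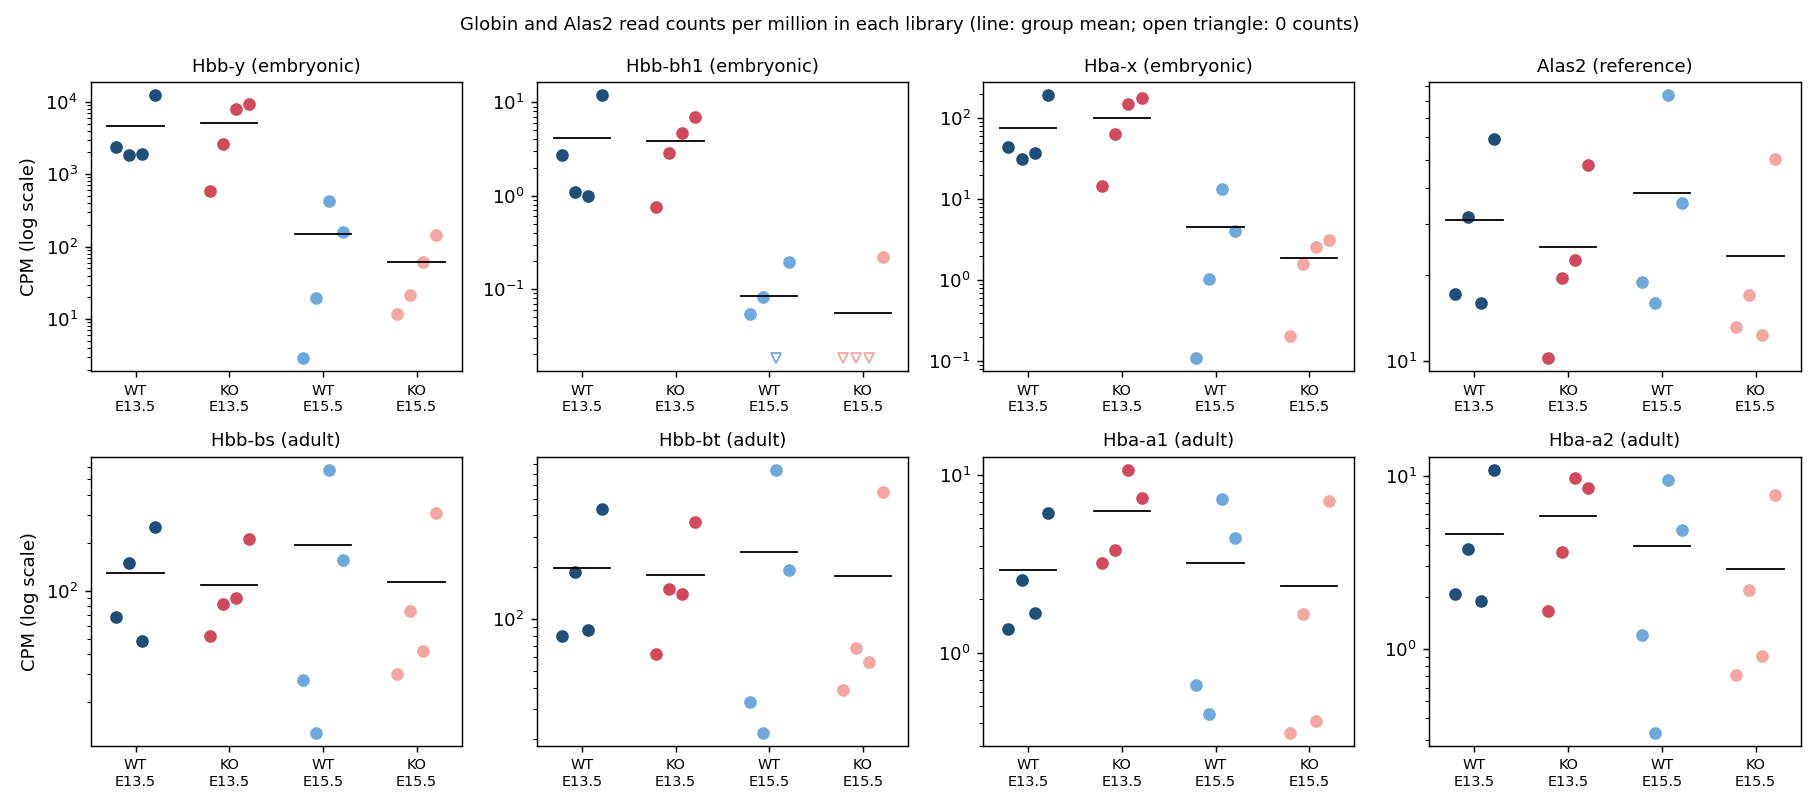
CPM (log axis) of the 8 genes in each library of the 4 groups, with replicates 1 to 4 from left to right, a line at the group mean and open triangles for libraries with 0 counts, drawn below the lowest value. The 3 embryonic globins do not overlap between the ages within a genotype, while the adult globins and Alas2 do. The genes were chosen for this contrast, and the share of all genes without such overlap was not counted.

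Per kb of exon, the scale on which genes can be compared, the order in WT E13.5 was Hbb-y at 7199 ± 8039 CPM per kb, Hbb-bt at 280 ± 237, Hbb-bs at 169 ± 121, Hba-x at 81.4 ± 82.1, Alas2 at 12.9 ± 8.36, Hba-a2 at 6.96 ± 6.29, Hbb-bh1 at 6.77 ± 8.43 and Hba-a1 at 3.60 ± 2.70 (SD, n = 4). Only for Hbb-y over Hbb-bt and Hba-x over Alas2 did the ranges over libraries not overlap with the next gene in that order. Within each WT E13.5 library, though, the order from Hbb-y down to Hba-a2 held. Hbb-bh1 lay above Hba-a2 in replicates 1 and 4 and below Hba-a1 in replicates 2 and 3. In WT E15.5 the order of the means was Hbb-bt at 350 ± 478, Hbb-bs at 250 ± 340, Hbb-y at 239 ± 308, Alas2 at 16 ± 13.0, Hba-a2 at 5.94 ± 6.22, Hba-x at 4.90 ± 6.39, Hba-a1 at 3.95 ± 4.03 and Hbb-bh1 at 0.136 ± 0.135. Of the WT E15.5 libraries, only replicate 3, the highest, held that order. Hbb-y was above Hbb-bs in replicates 2 (30.5 against 16.8) and 4 (253 against 203), and below Alas2 in replicate 1 (4.57 against 7.83). Hba-x made up 1.05% to 4.70% of embryonic globin reads per kb over the 16 libraries, and Hba-a1 and Hba-a2 together 1.27% to 8.03% of adult globin reads per kb. The GC content of the transcripts was 55.7% to 57.2% for the 3 alpha-type genes and 46.8% to 51.3% for the 4 beta-type genes, and its part in these shares was not tested.

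Within each library, the embryonic share compares genes of the same library and needs no scaling between libraries. It is a share of reads, and the share of primitive among red cells was not measured. For beta-type genes, (Hbb-y + Hbb-bh1) over all 4 genes per kb, it was 94.8%, 86.2%, 94.1% and 95.3% in WT E13.5 (mean 92.6% ± 4.29, SD, n = 4) and 85.4%, 92.8%, 97.6% and 94.9% in KO E13.5 (92.7% ± 5.22). At E15.5 it was 5.30%, 39.0%, 27.2% and 34.7% in WT (26.5% ± 15) and 16.7%, 15.1%, 42.1% and 16.5% in KO (22.6% ± 13.0). The lowest E13.5 library, at 85.4%, lay above the highest E15.5 library, at 42.1%, and the genotypes overlapped at both ages. The embryonic to adult beta ratio was thus 5.85 to 40.3 at E13.5 and 0.0559 to 0.726 at E15.5. Without the germ cell-rich library the mean share of KO E13.5 was 95.1%.

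For alpha-type genes, Hba-x over all 3 genes per kb, the share was 90.8%, 79.4%, 89.1% and 89.6% in WT E13.5 (87.2% ± 5.27) and 70.7%, 87.2%, 85.3% and 89.6% in KO E13.5 (83.2% ± 8.52). At E15.5 it was 4.27%, 51.1%, 37.9% and 25.2% in WT (29.6% ± 19.9) and 12.6%, 24.0%, 59.7% and 14.2% in KO (27.6% ± 22.0). The ages did not overlap here either. The mean share of KO E13.5 was 87.3% without the germ cell-rich library, and that of KO E15.5 was 16.9% without KO E15.5 replicate 3. Counting error was larger than for beta: the Wilson 95% interval was 1.17% to 14.4% in WT E15.5 replicate 1, where it rested on 2 Hba-x reads of 36, against 4.09% to 6.84% for the beta share of that library. Such intervals cover counting error only. KO E15.5 replicate 3 and WT E15.5 replicate 2, which share the title number 855, had the highest beta and alpha shares of their groups. KO E15.5 replicates 1 and 2, which share 1052, were close in the beta share, at 16.7% and 15.1%, and less so in the alpha share, at 12.6% and 24.0%.

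**Figure D2:**
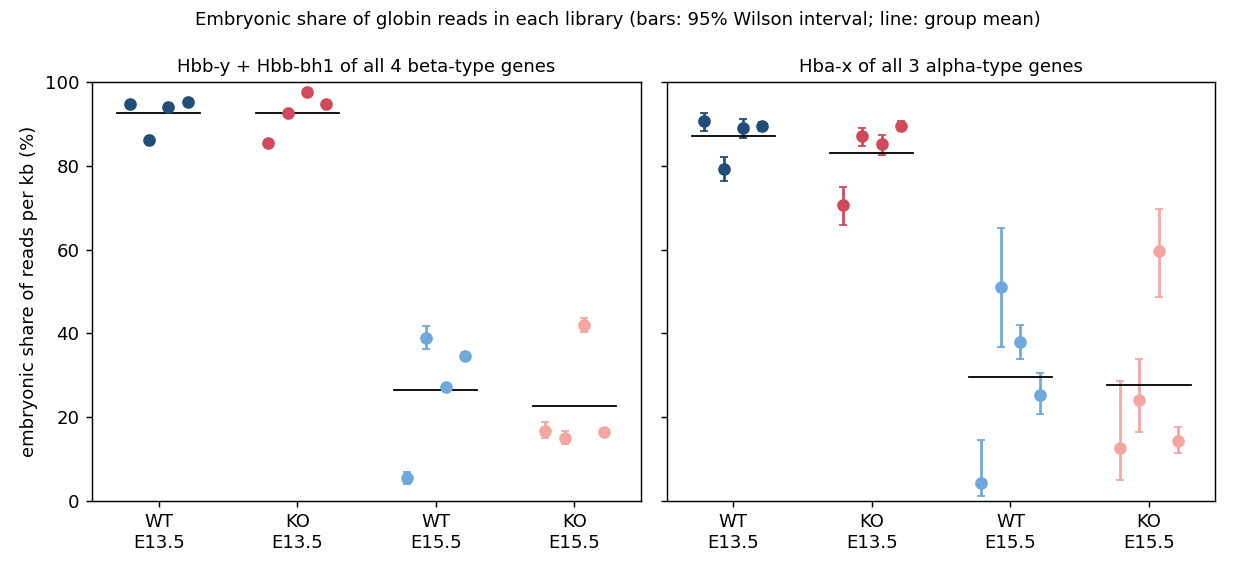
Embryonic share of beta-type (left) and alpha-type (right) globin reads per kb of exon, in percent, for each library in replicate order, with Wilson 95% intervals for counting error and a line at the group mean. Beta shares are 85.4% or more in every E13.5 library and 42.1% or less in every E15.5 library.

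These shares depend on how adult reads were counted. As an alternative, each gene's counts were divided by the number of 100-base windows found in no other gene. That length suits reads of 100 bases if shared reads were dropped. The beta share was then 83.2% ± 8.63 in WT E13.5, 83.6% ± 10.7 in KO E13.5, 12.8% ± 7.80 in WT E15.5 and 10.5% ± 7.47 in KO E15.5. The alpha share on that length was 66.3% ± 9.81, 61.2% ± 12.1, 12.3% ± 9.73 and 11.2% ± 11.5 in the same order. The ages still did not overlap, with beta shares of 68.8% or more at E13.5 and 21.7% or less at E15.5, and alpha shares of 43.8% or more and 28.2% or less. Per 50-base window the alpha share was 53.3% ± 10.4 in WT E13.5 and 48.9% ± 11.5 in KO E13.5.

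Set against Alas2, embryonic globin was lower at E15.5 while the values of adult globin overlapped between the ages. The ratio of embryonic globin to Alas2 reads per kb was 524, 221, 452 and 791 in WT E13.5 and 218, 517, 1379 and 753 in KO E13.5. It was 0.609, 4.77, 19.7 and 17.4 in WT E15.5 and 3.49, 5.08, 19.6 and 11.3 in KO E15.5. Adult globin to Alas2 was 29.0, 35.6, 28.6 and 39.4 in WT E13.5 and 38.2, 40.8, 36.8 and 40.9 in KO E13.5, and 11.0, 7.36, 52.2 and 33.1 in WT E15.5 and 17.4, 28.0, 26.7 and 57.3 in KO E15.5. The adult ratio varied little among E13.5 libraries, the germ cell-rich one included, and widely at E15.5, where it was highest in the libraries with the most Alas2. All 7 globins together per Alas2 gave a mean log2 ratio of 8.93 ± 0.70 in WT E13.5, 9.31 ± 1.03 in KO E13.5, 4.74 ± 1.37 in WT E15.5 and 5.27 ± 0.73 in KO E15.5. Leaving out the germ cell-rich library gave a mean log2 ratio of 9.74 in KO E13.5. Globin reads took 0.0647% to 1.26% of all counts at E13.5 and 0.00581% to 0.177% at E15.5. The value of 0.0647% was that of the germ cell-rich library, and the next lowest at E13.5 was 0.205%.

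**Figure D3:**
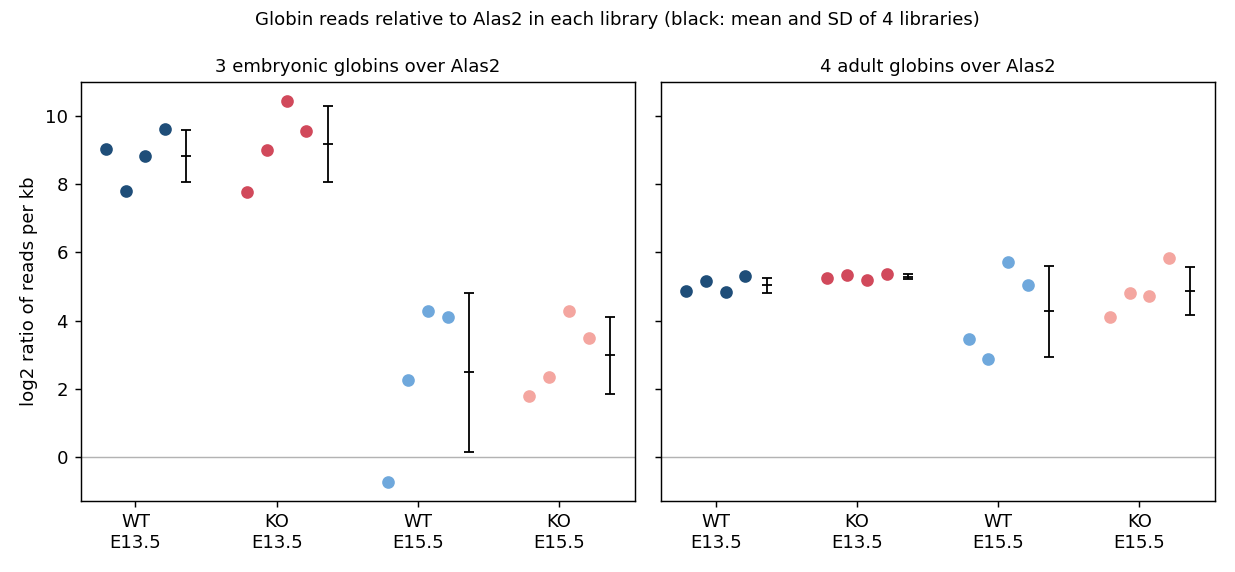
Log2 ratio of reads per kb of the 3 embryonic globins (left) and the 4 adult globins (right) to Alas2, for each library in replicate order, with the mean and SD of 4 libraries in black. Embryonic globin per Alas2 runs from 7.77 to 10.4 at E13.5 and from -0.71 to 4.30 at E15.5, while adult globin per Alas2 overlaps between the ages.

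Whether loss of Inhba moved these genes was asked at each age, a contrast the choice of genes did not use. At E13.5 none of the 8 genes passed the test, beside 1 gene (0.00498%) of all tested, and at E15.5 none passed, beside 30 genes (0.149%). None of the 8 had an unadjusted p under 0.05 at either age, while 2978 and 1002 genes of the whole table did. DESeq2 and limma-voom also called none of the 8. Without the germ cell-rich library 1.5% of all genes passed at E15.5 and 0.0049% at E13.5, and still none of the 8.

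At E13.5 the KO over WT log2 fold changes ran from -0.31 for Alas2 to 1.07 for Hba-a1, with a median of 0.03 beside 0.02 over all genes. Hba-a1, the largest, had an SE of 0.91, a 95% interval of -0.85 to 2.99 and an edgeR adjusted p of 0.592. Hbb-y was at 0.18 with an interval of -2.21 to 2.56 (edgeR adjusted p = 0.958), and Alas2 at -0.31 with an interval of -1.61 to 0.99 (edgeR adjusted p = 0.834). Leaving out the germ cell-rich library, the E13.5 changes ran from -0.03 for Alas2 to 1.28 for Hba-a1. Hbb-y was then at 0.55 (SE 1.07) and Hba-x at 0.77 (SE 0.72). Hbb-bh1 changed sign, from -0.12 to 0.24 (SE 0.70). With all libraries, every member's KO values overlapped its WT values.

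At E15.5 all 8 point estimates were below 0, with a median of -0.60 beside -0.0021 over all genes, and limma-voom with sample weights gave values above 0 for 5 of them (Hbb-y, Hba-a1, Hba-a2, Hbb-bs and Hbb-bt). Hbb-y was at -1.32 with an interval of -3.76 to 1.12, Hba-x at -1.24 with an interval of -3.43 to 0.96, and Alas2 at -0.72 with an interval of -2.02 to 0.57, each with an edgeR adjusted p of 1. Each interval includes 0 and reaches further below it than above. The 8 genes had standard errors of 0.61 to 1.60 at E15.5, against a median of 0.27 over all genes. They share their red cells, so their like signs are not separate observations.

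The difference of the genotype effects between the ages passed the test for none of the 8 genes, beside 4 genes (0.0199%) of all tested, and edgeR adjusted p-values were 0.741 to 0.966. The largest was that of Hba-x, at -1.64 (SE 1.37). None of the 8 had an unadjusted p under 0.05, while 1273 genes of the table did.

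**Figure D4:**
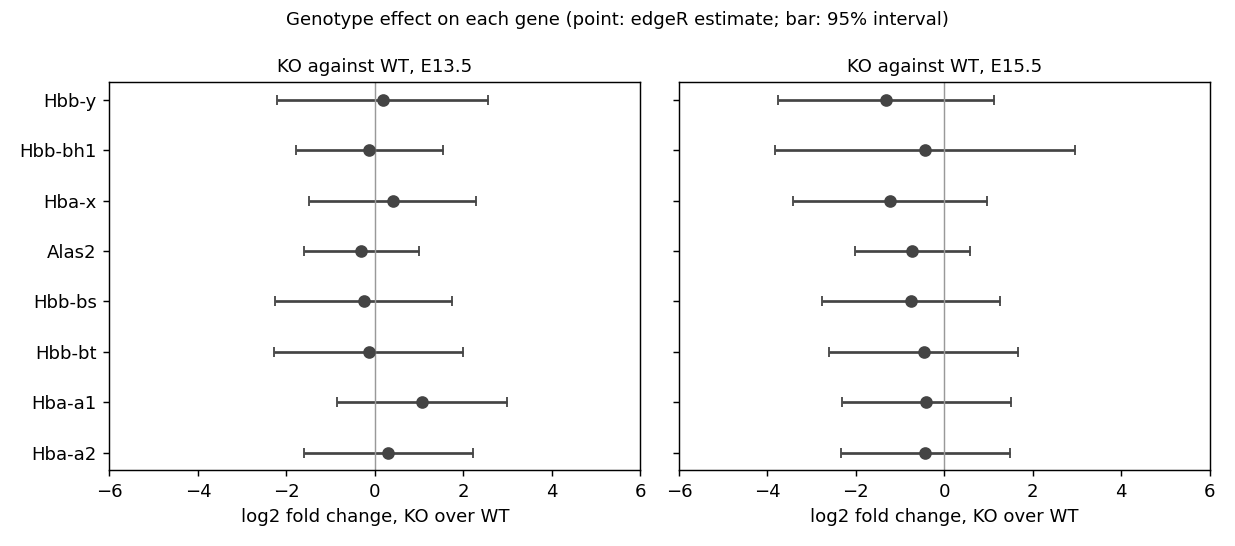
Log2 fold change of KO over WT for each of the 8 genes at E13.5 (left) and E15.5 (right), as edgeR estimates with 95% intervals. Every interval includes 0, and Alas2 has the narrowest at each age, from -1.61 to 0.99 at E13.5.

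Among all genes tested other than the 8, those whose deviations from the group means in log2 CPM were most like those of Alas2 were Epb41 (Pearson r = 0.979), Epb42 (0.965), Slc25a37 (0.959), Fech (0.951), Ermap (0.947), Bpgm (0.945) and Cldn13 (0.944), over 16 libraries. Epb41 and Epb42 encode proteins 4.1 and 4.2 of the red cell membrane skeleton, Slc25a37 the mitoferrin that brings iron into mitochondria, Fech ferrochelatase, which completes heme, and Bpgm the enzyme that makes bisphosphoglycerate, the red cell regulator of oxygen binding. On the same measure r was 0.959 for Hbb-bt, 0.930 for Hbb-bs, 0.921 for Hba-a2 and 0.876 for Hba-a1, and 0.809 for Hbb-y, 0.768 for Hba-x and 0.590 for Hbb-bh1. The order put adult above embryonic globins. All these values share the libraries, and the counts of Hbb-bh1 and Cldn13 are sparse.

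The genes whose levels were most like the mean log2 CPM of the 3 embryonic globins were Hsd3b6 (r = 0.982), Hbb-bh0 (0.976), Barx1 (0.956), Got2 (0.947) and Cyfip2 (0.940), over 16 libraries in 4 groups that differ in age. Hbb-bh0 is a further gene of the beta cluster, whose transcript ranged in WT between 1.43 and 6.46 CPM at E13.5 and between 0 and 0.117 CPM at E15.5. Hsd3b6 belongs to the 3-beta-hydroxysteroid dehydrogenase family of steroid enzymes. At E13.5 it was at 32.6 to 191 CPM among WT and 6.79 to 129 CPM among KO libraries, and at E15.5 at 0.273 to 6.94 and 0.621 to 5.48 CPM, so its ages overlapped only between genotypes. Got2, an aspartate aminotransferase, went from 46.5 ± 4.91 to 28.9 ± 4.78 CPM in WT and varied far less within a group than the globins did.

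Lists of other globins and of genes used in red cells held no called gene for genotype at either age. The lists were other globins (4 genes tested), heme synthesis and iron supply (17), red cell membrane and antigens (18), red cell enzymes and maturation (16) and erythroid transcription factors (11), and the test was edgeR's with adjustment over all genes. At E13.5 the list medians of the KO over WT log2 change were -0.29, 0.05, -0.50, -0.09 and -0.30 in that order, and at E15.5 -0.02, 0.04, 0.21, 0.26 and 0.28. The germ cell-rich library, which held less RNA of most somatic lists, entered the E13.5 values. Leaving that library out gave E13.5 medians of -0.10, 0.08, -0.21, 0.11 and 0.01 in the same order. Without it 1 gene of these lists was called at E15.5, Mb (myoglobin, the muscle oxygen carrier), with a log2 change of -2.10 (SE 0.45, edgeR adjusted p = 0.0229), and with it the adjusted p was 0.101. Mb was at 1.18 ± 0.37 CPM in WT E15.5 and 0.267 ± 0.0725 CPM in KO E15.5. How much of the list values comes from red cells, here and in the age changes below, was not tested. In WT E13.5 the transcription factor list summed to 477 ± 15.1 CPM, with Foxo3 at 253 ± 17.2 and Gata1 at 0.925 ± 0.783. The heme and iron list summed to 1528 ± 335 CPM there, with Fth1 at 688 ± 191.

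With age, few of these genes were called besides the embryonic globins. Of all genes tested, 6.79% in WT and 15.4% in KO were called in either direction, so nothing is read from single calls. Among other globins, Hbb-bh0 was lower in both genotypes (log2 change -5.70, SE 0.95, in WT and -5.25, SE 0.94, in KO) and Mb rose in WT (1.85, SE 0.43, edgeR adjusted p = 0.0185). No heme synthesis or iron gene and no red cell enzyme gene passed the test in either genotype. Of red cell membrane genes, Slc2a1, the glucose transporter Glut1, fell in KO (-0.71, SE 0.21, edgeR adjusted p = 0.0319). Of erythroid transcription factors, Ldb1, a bridging cofactor of Gata1 and Tal1 complexes, fell in WT (-0.45, SE 0.12, edgeR adjusted p = 0.0275). List medians in WT were -0.35 for heme and iron, -0.47 for membrane, -0.49 for enzymes and -0.45 for transcription factors, and in KO -0.25, 0.12, -0.02 and -0.08, beside all-gene medians of 0.02 and -0.05. Without the germ cell-rich library the list medians were -0.35, -0.48, -0.5 and -0.45 in WT and -0.13, 0.11, -0.29 and -0.25 in KO.

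Leaving out the germ cell-rich library raised the share of all genes called with age to 22.8% in WT and 21.3% in KO. On those 15 libraries 4 of 17 heme and iron genes were lower in WT and 3 in KO, among them Fth1, the ferritin heavy chain, at -0.56 and -0.57. Of the enzyme genes, Prdx2, a peroxiredoxin abundant in red cells, was lower in both genotypes (-0.50 and -0.67). Tal1, a factor of red cell and endothelial development, was lower in WT at -2.70 (SE 0.67, edgeR adjusted p = 0.00794), and Sptb, the red cell beta-spectrin, was higher in WT at 1.02 (SE 0.29, edgeR adjusted p = 0.0159).

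The list of globin switching regulators (19 genes tested) held factors known to silence or activate embryonic and fetal globins in red cells, several of which testis cells also express. With age 4 fell in WT, where 2.64% of all genes were lower, and none rose: Igf2bp1 (log2 change -1.81, SE 0.20), Hmga2 (-2.66, SE 0.34), Bcl11a (-1.27, SE 0.25) and Chd4 (-0.35, SE 0.09). In KO, where 7.85% of all genes were lower, 7 fell and none rose, among them Igf2bp1 (-1.57, SE 0.20), Lin28b (-2.43, SE 0.53), Hmga2 (-1.49, SE 0.33) and Chd4 (-0.39, SE 0.09). Without the germ cell-rich library Lin28b was at -1.28 (SE 0.29) in KO. Lin28b and its target network, which includes Igf2bp1 and Hmga2, are known as a fetal program that recedes with development. Without that library 8 of the 19 fell and 1 rose in each genotype, where 22.8% (WT) and 21.3% (KO) of all genes were called in either direction. For genotype none passed the test with all libraries, and without that library Hmga2 was higher in KO at E15.5 (0.75, SE 0.11, edgeR adjusted p = 0.0015, beside 0.909 with all libraries). These genes were measured in the whole sorted tissue: Hmga2 was at 737 ± 81.2 CPM in WT E13.5 and 117 ± 15 CPM in WT E15.5, with far less spread between libraries than Alas2, and Klf1, the red cell activator of adult beta globin, at 2.77 ± 2.23 and 1.63 ± 2.34 CPM. The share of these values that comes from red cells was not tested.

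Markers of other blood cells and of vessels, which could be in the sort as well, had no gene called for genotype. With age, Lyz2 and Cd52, of the macrophage and general blood cell lists, rose in both genotypes (3.27 and 1.97 in WT), and in KO Mrc1 (1.29) and the platelet gene Pf4 (1.45) rose too. Summed CPM of 15 macrophage genes went in WT from 157 ± 14.6 at E13.5 to 279 ± 88.4 at E15.5, that of 6 general blood cell genes from 14.7 ± 0.571 to 37.1 ± 9.42, and that of 10 platelet genes from 8.91 ± 0.740 to 6.62 ± 1.23. Of 11 endothelial genes 2 fell in WT (Cldn5 and Tie1) and 1 in KO (Pecam1), and the sum of the list in WT went from 319 ± 70.5 to 247 ± 68.4 CPM. Of all genes 2.64% were lower in WT and 7.85% in KO, and 6.79% and 15.4% were called in either direction. Macrophage and general blood cell sums were thus higher at E15.5 in WT, where the embryonic globins were lower. Without the germ cell-rich library 8 of 15 macrophage genes rose and 2 fell in WT, and 6 of 11 endothelial genes fell in WT and 7 in KO, beside 22.8% (WT) and 21.3% (KO) of all genes called in either direction. Of Sertoli cell genes 2 fell in WT (Cldn11 and Aard), and of stromal genes Dcn rose in WT (1.84) and 3 rose in KO. No Leydig cell gene was called. In KO 7 of 8 germ cell genes tested were lower, where the germ cell-rich library entered. Without that library none of the 8 was called in KO and 3 were higher in WT. Of 10 Sertoli cell genes 7 then fell and 1 rose in WT, and 6 fell in KO. Of 8 stromal genes 4 rose and 1 fell in WT and 5 rose in KO, and 1 Leydig cell gene rose in WT. The part of these shifts in the globin values was not tested.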

How the data were processed

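RNA-seq measured 16 libraries of GFP-negative testis cells sorted by flow cytometry, read on a HiSeq3000 after Nugen Trio library preparation from total RNA, per the labels. The authors deposited 1 table of raw read counts per gene, whole numbers and not stranded; the submitters' processing notes name STAR 2.5.2b, Subread 1.5.2 with featureCounts, FastQC 0.11.5, Picard 2.9.0, MultiQC 1.0 and the build GRCm38. The handling of reads that match several genes is not given in the sources used here. The 8 genes, the gene lists and the rules for naming genes (the 8, up to 4 called genes a list and contrast or the gene with the smallest p, and the genes most like Alas2 or the embryonic globins) were chosen with earlier results of these data known. A single gene that the rule names is not reported here.

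Counts were tested with edgeR 4.0.16 (R 4.3.3; filterByExpr, TMM, quasi-likelihood F test, 4 group means over all 16 libraries, Benjamini-Hochberg over 20076 genes at 0.05); the script was tested on simulated counts. The contrasts were KO against WT at each age, their difference, and the ages within each genotype. Shares and ratios used counts per kb of the union of exons in GENCODE vM21, with no test. The lists were other globins, heme synthesis and iron supply, red cell membrane, red cell enzymes, erythroid transcription factors, globin switching regulators, macrophages, platelets, blood cells in general, endothelium, germ cells, Sertoli cells, fetal Leydig cells and stromal cells. Alternatives were other scalings and filters, DESeq2 1.42.0, limma 3.58.1 (voom with sample weights), the groups compared alone, each library left out, the 2 libraries numbered 1052 summed, globins left out of scaling, and other lengths or gene pairs for the shares. Replicate numbers follow accession order and pair nothing. All 24 pairs of libraries within groups differed by more than sampling noise (chi-square per degree of freedom 8.79 to 249), and each was counted once. That check cannot tell separate animals from repeat preparations of the same animal. The depths were 6131592 to 23324810 counts. Nothing says that libraries of a group came from separate animals, and p-values may measure technical spread.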

Additional observations from a re-analysis of the deposited data

Results flagged for a closer look

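In groups of 4 libraries, a library was singled out where its gap to the nearest other, divided by the group's range, was above Dixon's 95% critical value. This held in 11 of 64 groups of values examined. A rate of about 1 in 20 holds by chance for normally distributed values only. CPM were used without logs and are skewed, so the rates cannot be compared. Where a single library of a group had reads, the rule flags it by construction. The values are not independent, since a library rich in red cells is high in several genes.

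WT E13.5 replicate 4 was far above the other 3 libraries in all 3 embryonic globins, at 12182 CPM of Hbb-y (others 1829 to 2337), 192 CPM of Hba-x (others 31.7 to 44.4) and 11.8 CPM of Hbb-bh1 (others 1.00 to 2.71). WT E13.5 replicate 2 had the lowest embryonic shares of its group, 86.2% for beta globin (others 94.1% to 95.3%) and 79.4% for alpha globin (others 89.1% to 90.8%). Its levels of Hbb-y and Hba-x were near those of replicates 1 and 3.

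KO E15.5 replicate 4 was far above its group in Hbb-bs at 306 CPM (others 30.0 to 74.7), in Hbb-bt at 547 CPM (others 38.7 to 67.6) and in Alas2 at 50.3 CPM (others 12.3 to 17.0). It was also the only KO E15.5 library with Hbb-bh1 reads, 5 of them, at 0.223 CPM and 0.156% of embryonic beta globin, where the others were at 0. KO E15.5 replicate 3 stood out by its embryonic share of beta globin, 42.1% (others 15.1% to 16.7%), although its Alas2, at 12.3 CPM, was the lowest of the group.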

How the results depend on the processing

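No setting called any of the 8 genes in KO against WT: over 25 to 27 settings a gene, the smallest adjusted p was 0.298 (Hba-x at E13.5). Directions of these uncalled changes were not stable. Leaving out each library in turn, log2 KO over WT at E13.5 ran from -0.285 to 1.35 (Hbb-y), -0.658 to 1.25 (Hbb-bh1), -0.0185 to 1.41 (Hba-x), -0.0142 to 1.14 (Hba-a2), -0.80 to 0.291 (Hbb-bs), -0.75 to 0.606 (Hbb-bt) and -0.852 to 0.207 (Alas2). At E15.5 it ran from -2.24 to 0.00277 (Hbb-y), -3.78 to 0.295 (Hbb-bh1), -1.64 to 0.148 (Hba-x), -2.03 to 0.384 (Hba-a1), -1.65 to 0.458 (Hba-a2), -1.97 to 0.792 (Hbb-bs) and -2.18 to 1.11 (Hbb-bt). The difference between ages ran from -3.66 to 0.42 (Hbb-bh1), -1.96 to 0.151 (Hba-a2), -1.72 to 1.05 (Hbb-bs), -2.04 to 1.25 (Hbb-bt) and -1.13 to 0.299 (Alas2). The age change ran in WT from -0.666 to 0.766 (Hba-a1), -1.12 to 0.598 (Hba-a2), -0.984 to 1.11 (Hbb-bs), -1.26 to 1.06 (Hbb-bt) and -0.405 to 0.825 (Alas2), and in KO from -1.15 to 0.607 (Hbb-bs), -1.73 to 0.599 (Hbb-bt) and -0.821 to 0.435 (Alas2).

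Limma-voom with sample weights gave, with the opposite sign, 1.13 (Hbb-bh1), 0.502 (Hbb-bs), 0.721 (Hbb-bt) and 0.384 (Alas2) for KO over WT at E13.5, 0.372 (Hbb-y), 0.203 (Hba-a1), 0.783 (Hba-a2), 0.89 (Hbb-bs) and 0.814 (Hbb-bt) at E15.5, and 0.388 (Hbb-bs) and 0.0926 (Hbb-bt) for their difference. For age it gave -1.03 (Hba-a1), -1.19 (Hbb-bs), -1.22 (Hbb-bt) and -0.0298 (Alas2) in WT and -0.803 (Hbb-bs) in KO. The age change of Hbb-bt in KO was 0.0538 with upper quartile scaling, 0.0072 with no filter and 0.283 with the 2 libraries numbered 1052 summed, where that of Alas2 was 0.0425. Leaving out replicate 4 of both E13.5 groups, chosen after seeing the data, gave 0.73 for Hbb-bh1 KO over WT. The cause was not tested.

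Leaving out each library in turn, 1 to 3 of the 8 genes were called between the ages in WT. The beta share at E15.5 was 44.7% (WT) and 39.9% (KO) without Hbb-bt, and 44.6% and 39.9% for Hbb-y against Hbb-bs alone, since fewer adult genes enter. The alpha share in WT E13.5 was 94.9% for Hba-x against Hba-a1 alone. Per 100-base and per 50-base window found in no other gene, a length chosen after seeing the data, the beta share at E13.5 was 83.2% and 82.0% (WT) and 83.6% and 82.4% (KO), the alpha share 66.3% and 53.3% (WT) and 61.2% and 48.9% (KO), and the alpha share in WT E15.5 7.78% per 50-base window. Without division by length, log2 globin per Alas2 was 7.03 (WT E13.5), 7.41 (KO E13.5), 2.97 (WT E15.5) and 3.51 (KO E15.5), since Alas2 is the longer gene. Of all genes, KO against WT at E15.5 called 30 by edgeR, 106 by DESeq2, 546 by limma-voom, 171 with the groups compared alone, 13 with the 2 libraries summed and 306 without KO E13.5 replicate 1; at E13.5 DESeq2 called 53 where edgeR called 1. With age in WT, 4655 genes were called without KO E13.5 replicate 1 and 1364 with it. No paired analysis was possible because replicate numbers follow accession order and the groups compared share at most 1 title number (855, on a WT and a KO library of E15.5). Depth limits Hbb-bh1, with at most 5 reads in any E15.5 library, and the alpha share, with 25 to 514 reads in E15.5 libraries.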
